A study of Bos taurus with 17 samples.

Results

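PTX3, CHI3L1, M-SAA3.2, A2M, CD14, SCARA5, MSMP and IL36A encode secreted, acute phase, scavenger and cytokine proteins of innate immunity. These 8 of the 12894 genes in the table were taken by symbol, and were chosen by function and by their levels in these same libraries, so those levels and their differences are given as descriptions, with no test. Where one of the 8 is said to pass or not pass the threshold defined below, this describes the fit and is not a test of that gene. The cells were bovine mesenchymal stem cells from umbilical cord, cultured on plastic or on cellulose scaffolds intended for cultivated meat, and their polyadenylated RNA was sequenced by MARS-seq, which reads transcripts at their 3′ ends. The design text calls the libraries of each condition biological replicates and does not say whether they came from separate animals or cultures, so p-values measure the spread between these libraries.

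The groups used were plastic at day 0 (3 libraries), plastic at day 3 (3), plastic at day 21 (2), media scaffold at day 21 (4) and smart scaffold at day 21 (3). Cells of day 0 had been seeded on untreated plastic 1 day earlier, in a growth medium of low glucose DMEM with fetal bovine serum. Cells of days 3 and 21 on plastic, and those on the media scaffold, then received a myogenic differentiation medium. It was based on DMEM/F-12 with serum, ITS, bovine serum albumin, dexamethasone, ascorbic acid 2-phosphate, vascular endothelial growth factor, insulin-like growth factor and a factor that the labels call fibroblast-like growth factor. On the smart scaffold the growth factors sat on the material itself and the medium lacked them. All groups thus share the cell source and serum, both scaffold groups differ from plastic in the material, and the 2 scaffold types differ in how the growth factors were supplied. The smart scaffold therefore differs from plastic at day 21 in both material and medium. Day 0 differs from the later groups in both time and medium, and these cannot be told apart here.

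Innate immunity relies on proteins that recognise microbes or damaged tissue without prior exposure. Soluble recognition proteins such as pentraxins coat their targets, acute phase proteins rise in inflammation, and receptors such as CD14 and the scavenger receptors bind lipopolysaccharide or modified proteins at the cell surface. Mesenchymal stromal cells are known to express several of these proteins, and cytokines of the interleukin 1 family and NF-kappaB, C/EBP and STAT3 signalling are known inducers of many of them.

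Day 0 libraries held 8952711 to 15483745 recovered reads and day 3 libraries 3118284 to 8629658. At day 21 the range was 2197356 to 5264578 for plastic, 7397661 to 8975051 for the media scaffold and 4315324 to 8258530 for the smart scaffold. All 8 mesenchymal stromal markers fixed for the check (THY1, ENG, NT5E, VIM, PDGFRB, PDGFRA, COL1A1 and COL1A2) were in the table, with a summed level of at least 132082 normalized reads in every library. Most of that sum came from VIM, COL1A1 and COL1A2. Other markers were far lower or varied: at day 0 mean PDGFRA was 13.6 and PDGFRB 47.6, and THY1 was 401 there and 18122 on plastic at day 21. Values below are normalized reads, the deposited reads divided by a factor for each library, with the mean ± SD over libraries. Differences are log2 values of normalized reads + 1 with their standard error (SE) from limma. A difference is called past the threshold at an adjusted p under 0.05 (limma, Benjamini-Hochberg over the 10960 genes tested) with a log2 difference of at least 1. Plastic at day 21 had the fewest libraries and the shallowest one, so a value there is the least precise. In bulk RNA, fewer cells that express a gene and less RNA per cell cannot be told apart.

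**Figure D1:**
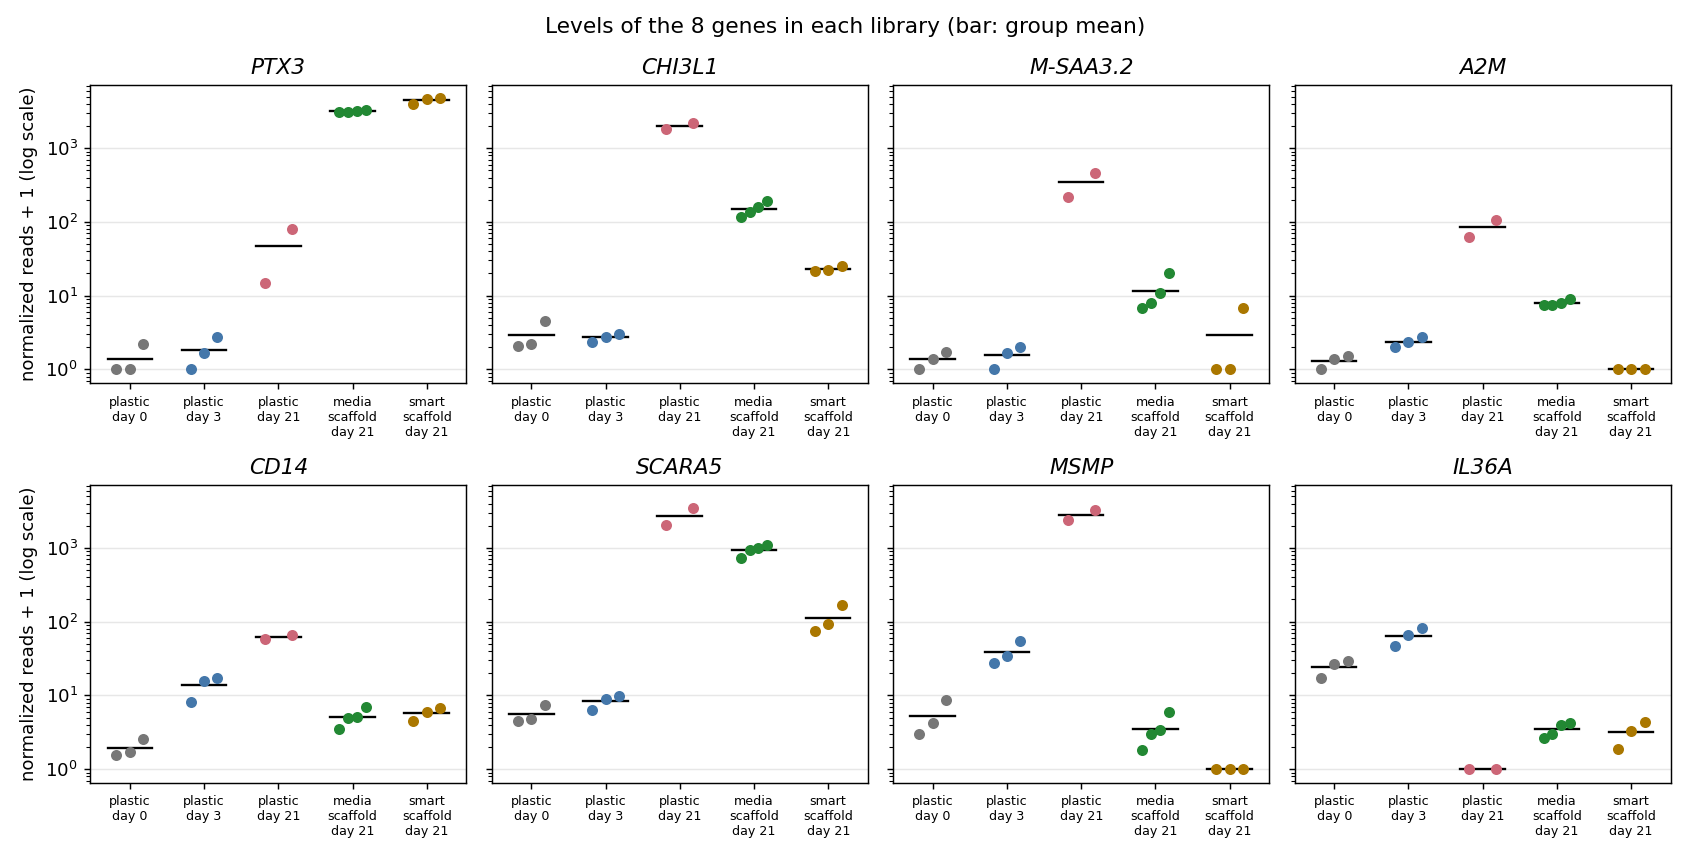
Normalized reads + 1 (log scale) of each of the 8 genes in the 15 libraries, by group, where each point is a library and each bar the group mean. PTX3 is highest on the scaffolds, IL36A is highest at day 3, and the other 6 genes are highest on plastic at day 21.

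PTX3 (ENSBTAG00000009012), the long pentraxin, is a secreted recognition protein that binds microbes and complement factors and is built into hyaluronan-rich matrix. It was close to absent at first and was then present at high levels on the scaffolds. The day 0 libraries held 0, 0 and 1.18 normalized reads, from 3 reads in all, and the day 3 libraries 0.674, 0 and 1.79, from 2 reads. Plastic libraries of day 21 were at 78.7 and 13.7, so the 2 libraries stood far apart. The media scaffold libraries held 3095, 3068, 3179 and 3301 normalized reads, and the smart scaffold libraries 4720, 4023 and 4646. No library of any scaffold overlapped with any library on plastic.

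The mean PTX3 level was 46.2 ± 45.9 (SD, n = 2) on plastic at day 21, 3161 ± 105 (SD, n = 4) on the media scaffold and 4463 ± 383 (SD, n = 3) on the smart scaffold. The media scaffold was 68.4-fold above plastic at day 21 (log2 difference 6.53, SE 0.497), and the smart scaffold 96.6-fold (7.02, SE 0.524). Since the plastic libraries differ, the media scaffold ratio was 230-fold without replicate 1 of plastic and 40.2-fold without replicate 2, and the smart scaffold ratio 325-fold and 56.7-fold. The smart scaffold was 1.41-fold above the media scaffold with no overlap of libraries, a log2 difference of 0.49 (SE 0.439) that did not pass the threshold. That SE includes the wide spread on plastic, while the pooled SD within the 2 scaffold groups was 0.0883 on the log2 scale. Against day 0, the ratio of normalized levels over the summed reads was 117 on plastic at day 21 (95% counting interval 38.1 to 582), 6139 on the media scaffold (2100 to 29772) and 8532 on the smart scaffold (2919 to 41378). These intervals cover counting error only. The ratio of means on plastic at day 21 to day 0, 117, was 34.8 without replicate 1 of plastic and 199 without replicate 2. All 3 reads of day 0 were in replicate 3, and without replicate 1 or 2 of day 0 the ratio of means was 78.0 on plastic. The same step took it from 8007 to 5338 on the media scaffold. In the RefSeq annotation (ARS-UCD2.0, used for names and neighbours), PTX3 lies within the span of VEPH1, which was not analysed here.

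TNFAIP6, whose protein TSG-6 works with PTX3 in assembling hyaluronan matrix, was the only tested gene of 21 listed for soluble recognition and antimicrobial defence. It rose on the media scaffold against day 0, from 3.05 ± 2.65 (SD, n = 3) to 12.1 ± 4.21 (SD, n = 4), a log2 difference of 2.01 (SE 0.548, limma adjusted p = 0.00402). It rose on the smart scaffold to 16.8 ± 2.64 (SD, n = 3), a log2 difference of 2.49 (SE 0.586, limma adjusted p = 0.0014). Its level on plastic at day 21 was 6.89, and the difference from day 0 did not pass the test (log2 difference 1.33, limma adjusted p = 0.0801). It passed without replicate 2 of day 0 (1.77, limma adjusted p = 0.0338), without replicate 3 of day 0 (1.71, limma adjusted p = 0.0423) and with the replicate number as a block (1.60, limma adjusted p = 0.0311). Without replicate 1 of day 0 it did not pass (0.50, limma adjusted p = 0.424). TNFAIP6 on the media scaffold did not pass against plastic at day 21 (log2 difference 0.68, limma adjusted p = 0.352). Nor did the smart scaffold (1.16, limma adjusted p = 0.131), except with the compared groups alone (limma adjusted p = 0.0303).

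CHI3L1 (ENSBTAG00000018223) encodes a secreted chitinase-like protein that binds chitin without cleaving it and is released by inflamed and remodelling tissue. Its level was near the limit of detection at days 0 and 3, highest on plastic at day 21, and stepped down from plastic to media scaffold to smart scaffold. Day 0 libraries held 3.52, 1.07 and 1.18 normalized reads and day 3 libraries 1.35, 2.01 and 1.79. Levels of 2203 and 1801 were found on plastic at day 21. Media scaffold libraries held 160, 191, 137 and 115, and the smart scaffold libraries 21.5, 24.3 and 20.7. The 3 groups of day 21 did not overlap with each other or with the earlier groups, whereas days 0 and 3 did overlap.

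The mean CHI3L1 level on plastic at day 21 was 2002 ± 284 (SD, n = 2), a 1041-fold ratio to day 0 (log2 difference 9.51, SE 0.315). Without replicate 1 of day 0 that ratio was 1779. The media scaffold, at 151 ± 32.7 (SD, n = 4), was 13.3-fold below plastic of the same day (log2 difference -3.74, SE 0.299). The smart scaffold, at 22.1 ± 1.90 (SD, n = 3), was 90.4-fold below plastic and 6.80-fold below the media scaffold (log2 difference -2.69, SE 0.264). Even on the smart scaffold the level was 11.5-fold that of day 0, or 19.7-fold without replicate 1 of day 0.

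Of 12 genes listed for the chitinase family and CHI3L1 receptors, 8 were tested. IL13RA1, a receptor chain of interleukin 13, went the other way from CHI3L1 between plastic and media scaffold at day 21. It rose from 26.5 ± 3.48 (SD, n = 2) to 200 ± 23.2 (SD, n = 4), a log2 difference of 2.87 (limma adjusted p = 2.63e-08). Against day 0, where IL13RA1 was at 44.6 ± 5.86 (SD, n = 3), both genes were higher on the media scaffold. CD44, a hyaluronan receptor that also binds CHI3L1, fell on plastic from 1429 at day 0 to 335 at day 21 (log2 difference -2.09, limma adjusted p = 8.44e-11). LGALS3, galectin 3, fell there from 5257 to 1810 (log2 difference -1.54, limma adjusted p = 9.7e-08) and was higher on the media scaffold than on plastic at day 21, at 10556 (log2 difference 2.54, limma adjusted p = 3.06e-10).

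M-SAA3.2 (ENSBTAG00000054278) encodes a mammary-associated form of serum amyloid A3, an acute phase protein made outside the liver. It was detected with 2 reads over the day 0 libraries and with 2 over the day 3 libraries. In the plastic libraries of day 21 it was at 466 and 216 normalized reads. Media scaffold libraries held 5.74, 9.95, 19.4 and 6.91, and the smart scaffold libraries 0, 0 and 5.75, with all 5 reads of that group in replicate 3. Plastic at day 21 did not overlap with any other group, while the 2 scaffold types overlapped.

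The ratio of M-SAA3.2 on plastic at day 21 to day 0 was 1151 over the summed reads (95% counting interval 317 to 9537). The ratio of means, 933, was 592 without replicate 1 of plastic, 1730 without replicate 1 of day 0 and 622 without replicate 2 of day 0. The media scaffold mean of 10.5 ± 6.21 (SD, n = 4) was 32.5-fold below the plastic mean of 341 ± 177 (SD, n = 2), and 20.6-fold below without replicate 1 of plastic. The smart scaffold mean of 1.92 ± 3.32 (SD, n = 3) was 178-fold below plastic, and 113-fold below without replicate 1 of plastic. Between the scaffolds the log2 difference was -2.47 (SE 0.606). It passed the threshold in the fit of all libraries but not with edgeR, DESeq2, the replicate number as a block or a pseudocount of 0.5, nor when any media scaffold library or replicate 1 or 2 of the smart scaffold was left out.

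SAA3, a close relative in the same family, allows the counting of M-SAA3.2 to be set beside a near copy. On plastic at day 21 the 2 genes had almost the same reads: 338 for M-SAA3.2 and 342 for SAA3 in replicate 1, and 63 and 64 in replicate 2, ratios of 1.01 and 1.02. On the media scaffold SAA3 had 128, 192, 229 and 117 reads against 7, 10, 24 and 7 for M-SAA3.2, ratios of 18.3, 19.2, 9.54 and 16.7. On the smart scaffold SAA3 had 18, 20 and 27 reads against 0, 0 and 5. The pair was therefore even in each plastic library of day 21 and uneven in each scaffold library. The sources used here do not give how reads matching more than 1 copy were assigned. The split between these genes is therefore uncertain, and what the uneven ratios come from was not tested.

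SAA3 itself rose on plastic from 0.132 ± 0.228 (SD, n = 3) at day 0 to 346 ± 178 (SD, n = 2) at day 21, a log2 difference of 8.18 (SE 0.423, limma adjusted p = 2.55e-11). It fell from the media scaffold, at 149 ± 45.3 (SD, n = 4), to the smart scaffold, at 26 ± 7.55 (SD, n = 3), a log2 difference of -2.47 (SE 0.354, limma adjusted p = 0.000897). Between plastic and media scaffold at day 21 SAA3 fell by 1.16 on the log2 scale (limma adjusted p = 0.0183), a call that was lost without replicate 1 of plastic (log2 difference -0.61, adjusted p = 0.293) and without replicate 1 of the media scaffold (-1.01, adjusted p = 0.0531). MT2A, a metallothionein listed with the acute phase proteins, also fell from the media scaffold, at 104 ± 12 (SD, n = 4), to the smart scaffold, at 43.8 ± 2.14 (SD, n = 3) (log2 difference -1.22, limma adjusted p = 6.88e-06). SAA3 and MT2A were the tested genes of 19 listed for the acute phase, and 4 were in the table.

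**Figure D2:**
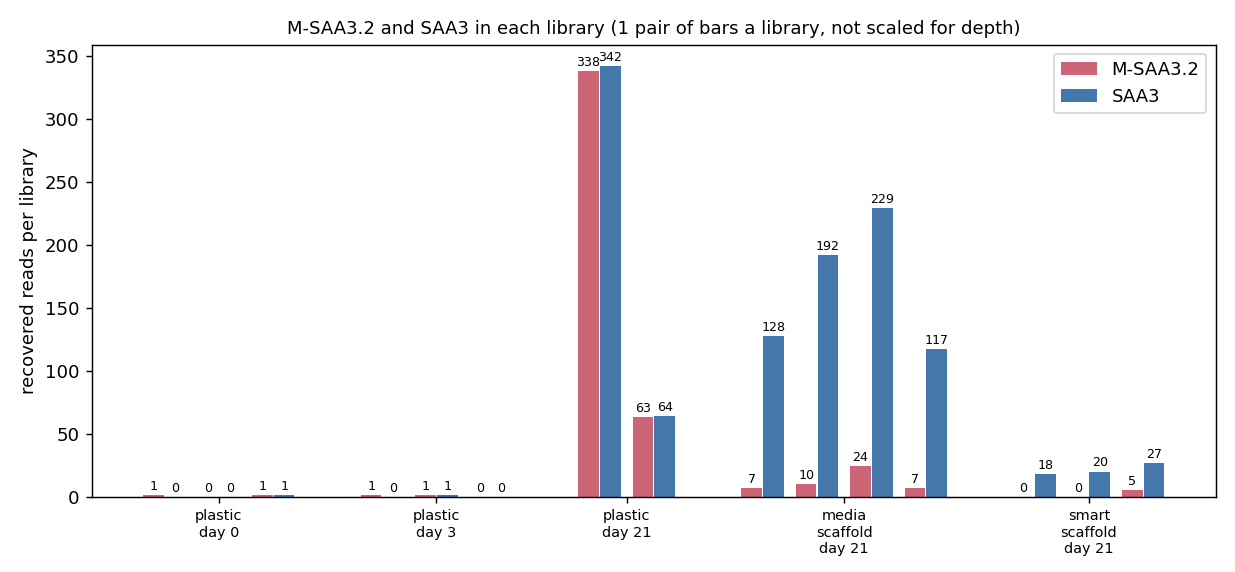
Recovered reads of M-SAA3.2 and SAA3 in each library, not scaled for depth, with the number over each bar. The pair of bars is level in both libraries of plastic at day 21 (338 and 342, 63 and 64) and SAA3 is the higher in all 7 scaffold libraries.

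A2M (ENSBTAG00000018137) encodes alpha-2-macroglobulin, a secreted inhibitor that traps proteases of every class and is cleared by the receptor LRP1. It was seen with 2 reads at day 0 and 4 reads at day 3, and its highest levels were on plastic at day 21, at 105 and 61.9 normalized reads. The media scaffold libraries lay close together at 6.57, 6.96, 6.48 and 7.90. All 3 smart scaffold libraries were at 0. A2M was therefore present in each library of plastic and media scaffold at day 21 and in none of the smart scaffold.

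On plastic at day 21 the A2M ratio to day 0 was 270 over the summed reads (95% counting interval 72.6 to 2261), and the ratio of means, also 270, was 422 without replicate 2 of day 0. The media scaffold mean of 6.98 ± 0.649 (SD, n = 4) was 11.9-fold below the plastic mean of 83.4 ± 30.4 (SD, n = 2), a log2 difference of -3.36 (SE 0.418). Set against the level that 3 reads over the group would give, the smart scaffold was at least 73.0-fold lower than plastic and at least 6.11-fold lower than the media scaffold, by group means.

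LRP1, the receptor that takes up A2M bound to proteases, rose on plastic from 32.7 ± 5.21 (SD, n = 3) at day 0 to 238 ± 135 (SD, n = 2) at day 21, a log2 difference of 2.71 (SE 0.298, limma adjusted p = 3.69e-07). It fell from there to 72.8 ± 8.68 (SD, n = 4) on the media scaffold (log2 difference -1.58, limma adjusted p = 0.000119). Of 17 tested genes among the relatives of A2M and other protease inhibitors, 10 rose and 2 fell on plastic between days 0 and 21, beside 21.2% and 24.1% of all tested genes. Without replicate 1 of plastic at day 21, 4 fell. The 17 genes include LRP1 and LRPAP1, which are not protease inhibitors, and LRP1 is counted again among the scavenger receptors below. SERPINF1, the secreted factor PEDF, rose from 16.4 to 1402 (log2 difference 6.33, limma adjusted p = 1.65e-15). ITIH5, an inter-alpha-trypsin inhibitor chain, rose from 1.01 to 112 (log2 difference 5.88, limma adjusted p = 6.25e-12). ITIH5 did not share the lower scaffold level of A2M: it was higher on the media scaffold than on plastic, at 472 ± 30.9 (SD, n = 4) (log2 difference 2.09, limma adjusted p = 2.18e-06).

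CD14 (ENSBTAG00000015032) encodes a co-receptor that hands lipopolysaccharide to TLR4 and its partner MD-2, and is best known from monocytes and macrophages. It was already higher at day 3 and higher again on plastic at day 21. Day 0 libraries held 0.703, 0.533 and 1.58 normalized reads, day 3 libraries 14.8, 16.1 and 7.14, and plastic libraries of day 21 held 56.6 and 65.3. The media scaffold libraries held 2.46, 3.98, 4.05 and 5.92, and the smart scaffold libraries 4.95, 3.47 and 5.75. The scaffold types overlapped with each other and lay below both later plastic groups and above day 0.

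The mean CD14 level was 0.938 ± 0.561 (SD, n = 3) at day 0, 12.7 ± 4.85 (SD, n = 3) at day 3 and 60.9 ± 6.16 (SD, n = 2) on plastic at day 21. The day 3 mean was 13.5-fold that of day 0 (log2 difference 2.78, SE 0.392), and 21-fold without replicate 3 of day 0. Plastic at day 21 was 4.8-fold above day 3 (log2 difference 2.25, SE 0.439). The media scaffold, at 4.10 ± 1.42 (SD, n = 4), was 14.8-fold below plastic at day 21, and the smart scaffold, at 4.72 ± 1.16 (SD, n = 3), 12.9-fold below. Between the scaffolds the log2 difference was 0.19 (SE 0.367). On the scaffolds these levels rest on 18 and 12 reads.

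TLR4, the signalling receptor for lipopolysaccharide, rose on plastic from 10.5 ± 1.93 (SD, n = 3) at day 0 to 70.6 ± 36.7 (SD, n = 2) at day 21 (log2 difference 2.55, SE 0.369, limma adjusted p = 8.72e-06). LY96, the gene of MD-2, was named here after its values were seen: it was at 11.7 ± 4.01 (SD, n = 3) at day 0 and 9.29 ± 1.43 (SD, n = 2) on plastic at day 21, with no call in any comparison. Of 15 tested genes of the lipopolysaccharide receptor and Toll-like receptor pathway, 3 rose and 2 fell on plastic between days 0 and 21, where 21.2% of all tested genes rose and 24.1% fell. RIPK2, the kinase below NOD1 and NOD2, fell from 366 ± 12.8 (SD, n = 3) to 80.2 ± 1.69 (SD, n = 2) (log2 difference -2.18, limma adjusted p = 7.37e-09) and was higher on the media scaffold, at 299 ± 28.6 (SD, n = 4) (log2 difference 1.88, limma adjusted p = 5.04e-08). NOD1, a sensor of bacterial cell wall fragments, rose from 13.5 at day 0 to 88.8 on the media scaffold (log2 difference 2.65, limma adjusted p = 2.37e-09). Its level was also above day 0 on plastic at day 21, at 63.0 ± 3.23 (SD, n = 2), and on the smart scaffold, at 75.8 ± 3.27 (SD, n = 3). Against plastic at day 21, 5 of the 15 genes were higher and 0 lower on the media scaffold (20.8% and 14.6% of all tested genes). On the smart scaffold, 5 were higher and 1 lower (21.4% and 16%). CD14 itself was lower on both scaffolds than on plastic at day 21.

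Of 14 leukocyte markers, 5 were in the table (CSF1R, FCER1G, LAPTM5, SPI1 and CORO1A), none of them at 0 over a whole group, and PTPRC, which defines leukocytes, was not analysed here. Their summed level ran from 29.3 to 32.0 normalized reads at day 0, 33.9 to 65.3 at day 3, 66.2 to 117 on plastic at day 21, 26.7 to 41.9 on the media scaffold and 23.1 to 36.4 on the smart scaffold. Plastic at day 21 was thus the group with the highest sum, as it was for CD14. LAPTM5, a lysosomal membrane protein of blood cells, was at 2.14 ± 1.5 (SD, n = 3) at day 0 and 24.4 ± 9.18 (SD, n = 2) on plastic at day 21 (log2 difference 3.11). It reached the minimum mean of 5 normalized reads needed for testing only through plastic at day 21, so no test is read from it. CSF1R, the receptor for macrophage colony stimulating factor, rose from 9.39 to 41.3 (log2 difference 1.99, limma adjusted p = 0.000268), the highest mean of the 5 on plastic at day 21. The rest of the 5 did not share a clear rise between these groups. FCER1G was at 5.56 and 11.4 and CORO1A at 10.75 and 12.04, and neither passed the threshold. SPI1 was at 3.14 and 2.41 and was not tested. CD68, a macrophage-rich scavenger receptor, was at 16.3 ± 1.74 (SD, n = 3) and 16.2 ± 1.41 (SD, n = 2) in these groups. Of 6 endothelial markers, VWF and TEK were in the table, with sums of 5.33 to 7.89 at day 0, 31.7 to 55.0 on plastic at day 21 and 23.8 to 33.8 on the media scaffold. The part of leukocytes or endothelial cells in the levels of the 8 genes was not tested.

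SCARA5 (ENSBTAG00000019636) encodes a class A scavenger receptor that binds ferritin and takes up its iron. It was low at days 0 and 3, highest on plastic at day 21, and fell away in the same order as CHI3L1 from plastic to media scaffold to smart scaffold. Day 0 libraries held 3.52, 3.73 and 6.32 normalized reads, and day 3 libraries 5.39, 8.05 and 8.93. The 2 plastic libraries of day 21 held 3442 and 2041. Media scaffold libraries were at 1006, 931, 1086 and 724, and the smart scaffold libraries 165, 72.9 and 90.8. Each day 21 group stood clear of the other groups, and days 0 and 3 overlapped.

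The mean SCARA5 level on plastic at day 21 was 2742 ± 991 (SD, n = 2), 606-fold that of day 0 (log2 difference 8.94, SE 0.319). The media scaffold, at 937 ± 156 (SD, n = 4), was 2.93-fold below plastic (log2 difference -1.52, SE 0.303). The smart scaffold, at 110 ± 48.9 (SD, n = 3), was 25.0-fold below plastic and 8.55-fold below the media scaffold (log2 difference -3.16, SE 0.267). In RefSeq an uncharacterised gene, LOC112447908, overlaps SCARA5, and reads of overlapping genes could not be told apart.

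FTH1 encodes the heavy chain of ferritin. It was at 2435 ± 515 (SD, n = 3) at day 0 and 8826 ± 1393 (SD, n = 2) on plastic at day 21, a rise (log2 difference 1.87, limma adjusted p = 1.39e-06), and it rose from day 0 to 13573 ± 2647 (SD, n = 4) on the media scaffold (log2 difference 2.48, limma adjusted p = 4.27e-09) and to 8893 ± 568 (SD, n = 3) on the smart scaffold (log2 difference 1.89, limma adjusted p = 4.06e-07). No difference of FTH1 among the groups of day 21 passed the threshold. Of the 10 genes of ferritin and iron uptake, 3 rose and 3 fell on plastic between days 0 and 21 (21.2% and 24.1% of all tested genes). With an equal total per library 2 rose and 5 fell, and without replicate 1 of plastic at day 21, 5 fell. TFRC, the transferrin receptor, fell from 24.3 ± 0.531 (SD, n = 3) to 3.10 ± 0.478 (SD, n = 2) (log2 difference -2.63, limma adjusted p = 2.5e-05). SLC40A1, the iron exporter ferroportin, rose on the media scaffold against plastic at day 21, from 25.8 to 200 (log2 difference 2.90, limma adjusted p = 7.08e-08).

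Among 10 tested scavenger receptors other than SCARA5 and CD14, 7 rose and 0 fell on plastic between days 0 and 21 (21.2% and 24.1% of all tested genes), and 2 rose and 5 fell on the media scaffold against plastic (20.8% and 14.6%). MRC2, a collagen uptake receptor, rose on plastic from 532 ± 44.1 (SD, n = 3) to 5229 ± 217 (SD, n = 2) (log2 difference 3.30, limma adjusted p = 1.03e-10). AGER, the receptor for advanced glycation end products, fell on the media scaffold from 58.9 ± 0.656 (SD, n = 2) to 8.66 ± 2.12 (SD, n = 4) (log2 difference -2.66, limma adjusted p = 2.81e-07). CD36, a fatty acid and lipoprotein receptor, had no read at day 0. It was at least 18.1-fold higher on plastic at day 21, at least 127-fold higher on the media scaffold and at least 59.9-fold higher on the smart scaffold, by group means against 3 reads over the day 0 libraries. CD36 was the reverse of SCARA5 on the media scaffold, where it rose from 9.29 to 65.2 against plastic at day 21 (log2 difference 2.64, limma adjusted p = 8.9e-06).

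MSMP (ENSBTAG00000038777) encodes microseminoprotein, a small secreted protein that attracts monocytes through the receptor CCR2. Of the 8 genes it had the largest log2 difference between plastic and scaffold at day 21. Day 0 libraries held 7.74, 3.2 and 1.97 normalized reads, and day 3 libraries 33.7, 53.3 and 26.8. By day 21 on plastic they held 3227 and 2374. Media scaffold libraries were at 0.821, 4.97, 2.43 and 1.97, from 11 reads in all, and the 3 smart scaffold libraries were at 0. The 3 times on plastic did not overlap with each other, and the media scaffold overlapped with day 0.

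The mean MSMP level was 4.30 ± 3.04 (SD, n = 3) at day 0, 37.9 ± 13.8 (SD, n = 3) at day 3 and 2801 ± 603 (SD, n = 2) on plastic at day 21. The day 3 mean was 8.82-fold that of day 0 (log2 difference 2.97, SE 0.441), or 14.7-fold without replicate 1 of day 0, and plastic at day 21 was 73.8-fold above day 3 (log2 difference 6.21, SE 0.49). The media scaffold, at 2.55 ± 1.75 (SD, n = 4), was 1098-fold below plastic at day 21 (log2 difference -9.74, SE 0.468). The smart scaffold was at least 2454-fold below plastic and at least 2.23-fold below the media scaffold, by group means against 3 reads over the group. The second of these differences did not pass the threshold with edgeR, DESeq2, the replicate block, a pseudocount of 4, quantile normalization or the compared groups alone. It also failed without replicate 2, 3 or 4 of the media scaffold and without any smart scaffold library.

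CCL2, another ligand of CCR2, was the tested gene of 6 listed, and CCR2 was not analysed here. CCL2 rose from 13.7 ± 1.53 (SD, n = 3) at day 0 to 341 ± 106 (SD, n = 3) at day 3 (log2 difference 4.50, limma adjusted p = 3.87e-10), when MSMP was at 37.9. On plastic at day 21 it was at 236 ± 120 (SD, n = 2), on the media scaffold at 133 ± 20.7 (SD, n = 4) and on the smart scaffold at 67.4 ± 5.11 (SD, n = 3). The fall from plastic to the smart scaffold passed the test (log2 difference -1.70, limma adjusted p = 4.06e-05).

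IL36A (ENSBTAG00000002087) encodes an agonist of the interleukin 36 receptor, a cytokine of the interleukin 1 family best known from epithelia. It was the only gene of the 8 that was lower in every group of day 21 than at day 0. Day 0 libraries held 25.3, 16.0 and 28.4 normalized reads, and day 3 libraries 64.0, 46.3 and 80.3. Both libraries of plastic at day 21 were at 0. The media scaffold libraries held 1.64, 2.98, 3.24 and 1.97, and the smart scaffold libraries 3.30, 0.868 and 2.30. Days 0 and 3 did not overlap, and both lay above all 9 libraries of day 21.

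The mean IL36A level was 23.2 ± 6.47 (SD, n = 3) at day 0 and 63.5 ± 17.0 (SD, n = 3) at day 3, a 2.73-fold ratio (log2 difference 1.42, SE 0.390) that did not pass the threshold without replicate 2 of day 0. Plastic at day 21 was at least 7.87-fold below day 0 and at least 21.5-fold below day 3, by group means against 3 reads over the group. The media scaffold, at 2.46 ± 0.772 (SD, n = 4), was 9.45-fold below day 0, and the smart scaffold, at 2.16 ± 1.22 (SD, n = 3), 10.8-fold below. A difference between plastic and scaffold at day 21 was not detectable at this depth: 3 reads over the plastic libraries would give 2.95 normalized reads, more than either scaffold mean. Of 6 epithelial markers, CDH1 and KRT19 were in the table, with sums of 2.81 to 6.93 normalized reads at day 0, 0 to 1.35 at day 3 and 1.97 to 6.90 over the groups of day 21. At day 3 the sum rested on 2 reads of KRT19 and 0 of CDH1, and neither gene was tested. The part of epithelial cells in the level of IL36A was not tested. The other interleukin 36 genes and the receptor chain IL1RL2 were not analysed here.

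Of 19 listed genes of the interleukin 1 and interleukin 36 family, 6 were tested. IL1RN, the interleukin 1 receptor antagonist, fell on plastic from 21.4 ± 1.80 (SD, n = 3) at day 0 to 0.690 ± 0.976 (SD, n = 2) at day 21 (log2 difference -3.86, limma adjusted p = 8.03e-08). On the smart scaffold it rose to 83.9 ± 12 (SD, n = 3) against day 0 (log2 difference 1.91, limma adjusted p = 9.59e-05). IL18RAP, an accessory chain of the interleukin 18 receptor, was low in all groups of day 21, as IL36A was: it fell from 29.6 ± 2.06 (SD, n = 3) at day 0 to 3.79 ± 0.498 (SD, n = 2) on plastic (log2 difference -2.68, limma adjusted p = 0.000671) and to 2.16 ± 1.87 (SD, n = 4) on the media scaffold (log2 difference -3.44, limma adjusted p = 1.03e-05).

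Over the comparisons, counts of the 8 genes past the threshold are given beside the share of all tested genes past it in the same direction. The genes were chosen with these differences known, so nothing is read from the counts. All 8 reached the minimum mean of 5 normalized reads that a gene needed to be tested, and M-SAA3.2 and A2M reached it only through plastic at day 21. On plastic, 3 were higher and 0 lower at day 3 than at day 0, where 6.27% of all genes were higher and 3.73% lower. At day 21, 7 were higher and 1 lower than at day 0 (21.2% and 24.1% of all genes), and 7 and 1 against day 3 (15.5% and 19.4%). The 1 gene lower in each case was IL36A.

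The media scaffold had 6 of the genes higher and 1 lower than day 0 on plastic (17.5% and 14.9% of all genes), and the smart scaffold 4 higher and 2 lower (16.5% and 14.1%). Against plastic at day 21, 2 were higher and 6 lower on the media scaffold (20.8% and 14.6%), and 2 higher and 6 lower on the smart scaffold (21.4% and 16%). The 2 higher genes were PTX3 and IL36A, and IL36A is under the level that plastic at day 21 could show. Between the scaffold types, 0 were higher and 5 lower on the smart scaffold (0.073% and 0.83%): CHI3L1, M-SAA3.2, A2M, SCARA5 and MSMP. Of these, M-SAA3.2 had overlapping libraries, and the calls of M-SAA3.2 and MSMP were lost under most alternatives. The comparisons share libraries, so they are not independent of each other.

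**Figure D3:**
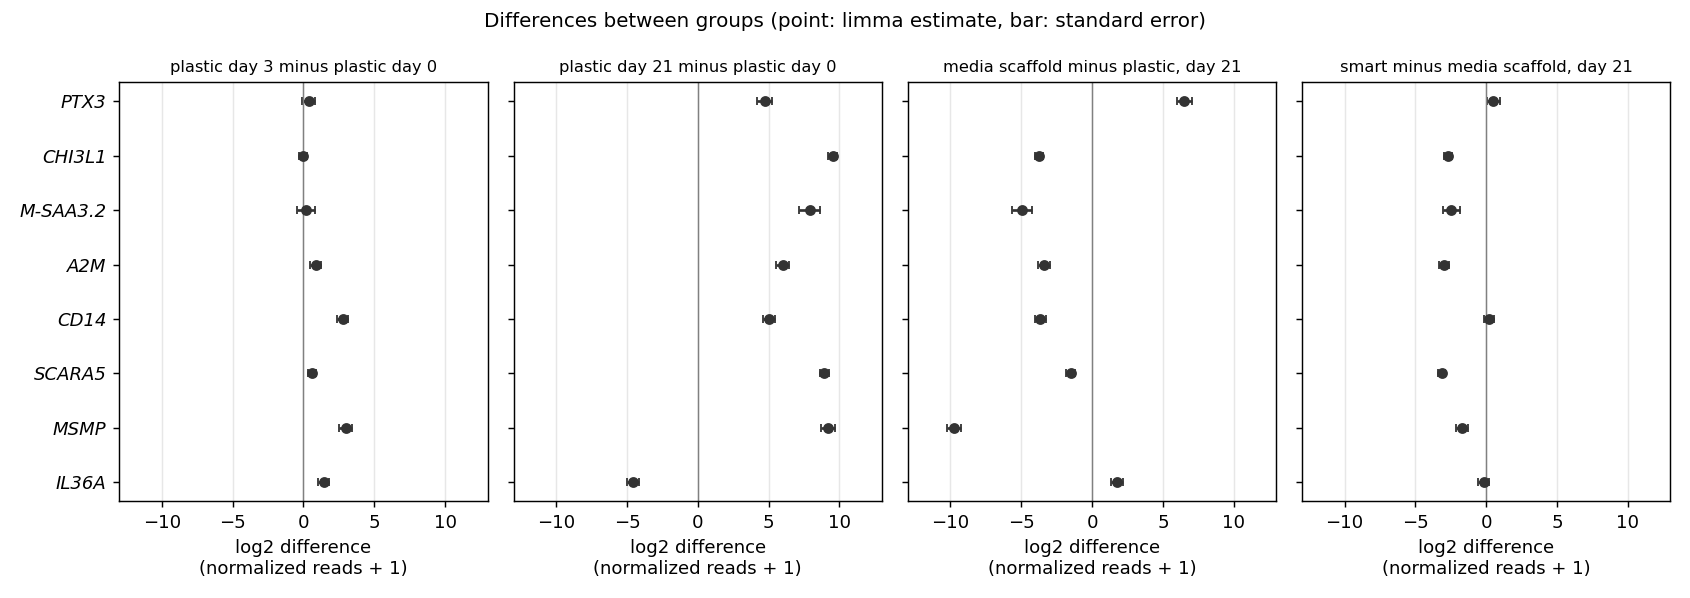
Log2 differences of the 8 genes (normalized reads + 1) in 4 comparisons, where points are limma estimates and bars standard errors. On plastic from day 0 to day 21 only IL36A is to the left of 0, and from plastic to the media scaffold only PTX3 and IL36A are to the right.

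The median log2 difference of the 8 genes was 0.75 between day 3 and day 0, 6.94 between plastic at day 21 and day 0, -3.50 between media scaffold and plastic at day 21, and -2.08 between the scaffold types. The medians of all tested genes were -0.02, -0.06, 0.02 and 0.00 in the same comparisons. Ordered by group mean, 6 of the 8 genes were highest on plastic at day 21. The groups next to each other in that order overlapped, or differed by few reads, mostly at the low end: days 0 and 3 overlapped for PTX3, CHI3L1, M-SAA3.2 and SCARA5, and the scaffold types overlapped for M-SAA3.2, CD14 and IL36A.

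Across the 15 libraries the closest pair among the 8 genes was CHI3L1 and SCARA5 (Pearson r 0.966 of log2 values), and the most opposed pair CHI3L1 and IL36A (r -0.888). These libraries fall into 5 groups and share the normalization, so the values describe the pattern over groups. By the same measure the genes most like PTX3 were FN1, fibronectin (r 0.996), HPCAL1 (0.991) and CCDC3 (0.991). FN1 had group means of 7716 normalized reads at day 0, 9278 at day 3, 18950 on plastic at day 21, 51275 on the media scaffold and 54486 on the smart scaffold. CCDC3, a secreted protein, had means of 24.5, 20.2, 276, 9453 and 8873 in the same order. The step from plastic to scaffold was thus shared in direction by PTX3, FN1 and CCDC3, with different sizes.

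Closest to CHI3L1 were ADGRL1 (r 0.990), the retinoid receptor RXRA (0.988) and BGN, the proteoglycan biglycan (0.983). BGN had means of 7367, 8376, 67474, 31544 and 19735 normalized reads. Closest to SCARA5 were SAA3 (0.991), VCAM1, an adhesion receptor for leukocytes (0.989), and MFAP5, a microfibril protein (0.984). VCAM1 had means of 0.487, 1.97, 180, 68.1 and 14.9, the same order of groups as SCARA5, with no overlap between the day 21 groups. Closest to M-SAA3.2 were STAP2 (0.960), the lipoprotein gene APOE (0.957) and ZCCHC17 (0.954), and APOE had means of 152, 168, 3352, 540 and 274.

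For A2M the closest genes were SELENBP1 (0.960), RNF44 (0.942) and ADAMTS15 (0.940), a metalloprotease gene with means of 0.675, 4.06, 416, 14.8 and 2.97 normalized reads. For CD14 they were SGSM2 (0.977), PPFIA3 (0.970) and ARHGEF40 (0.967). For MSMP they were ASB11 (0.980), TADA3 (0.972) and CUL9 (0.970), and for IL36A MBOAT1 (0.980), ATP1B1 (0.973) and SPP1, osteopontin (0.972). SPP1 had means of 6794, 17356, 826, 1255 and 1423, highest at day 3 and lowest on plastic at day 21, as for IL36A. The genes closest to CD14 and MSMP moved over a far narrower range: TADA3 had means of 423, 549, 932, 439 and 372.

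Of the 191 genes in the 10 related lists, which do not include the 8, 104 were in the table and 89 were tested. On plastic between days 0 and 21, 34 of these rose and 13 fell (38.2% and 14.6%), against 21.2% and 24.1% of all genes. On the media scaffold against plastic at day 21, 25 rose and 14 fell (28.1% and 15.7%), against 20.8% and 14.6%. Between the scaffold types SAA3 and MT2A were the 2 that fell. With each library scaled to an equal total, the all-gene median of plastic at day 21 against day 0 shifted by -0.257, and 30 list genes then rose and 18 fell. The lists were chosen with earlier results of these data known.

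Among 20 tested genes of NF-kappaB, C/EBP and STAT3 signalling, 7 rose and 1 fell on plastic between days 0 and 21, when 21.2% of all tested genes rose and 24.1% fell. CEBPD, a transcription factor of the acute phase response, rose in every step on plastic, from 521 ± 65.8 (SD, n = 3) at day 0 to 1455 ± 318 (SD, n = 3) at day 3 (log2 difference 1.46, limma adjusted p = 3.74e-07) and 4533 ± 608 (SD, n = 2) at day 21 (1.66 against day 3, limma adjusted p = 6.4e-08). On the media scaffold it was at 7115 ± 267 (SD, n = 4), so it did not share the lower scaffold level of CHI3L1, M-SAA3.2 and A2M. STAT3, which signals for interleukin 6, rose on plastic from 114 ± 10.6 (SD, n = 3) to 730 ± 52.0 (SD, n = 2) at day 21 (log2 difference 2.67, limma adjusted p = 6.51e-10) and fell from there to 322 ± 31.8 (SD, n = 3) on the smart scaffold (log2 difference -1.18, limma adjusted p = 1.97e-05). NFKBIA, the NF-kappaB inhibitor that NF-kappaB itself induces, fell from 800 ± 79.0 (SD, n = 2) on plastic at day 21 to 296 ± 34.3 (SD, n = 3) on the smart scaffold (log2 difference -1.43, limma adjusted p = 5.97e-08).

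**Figure D4:**
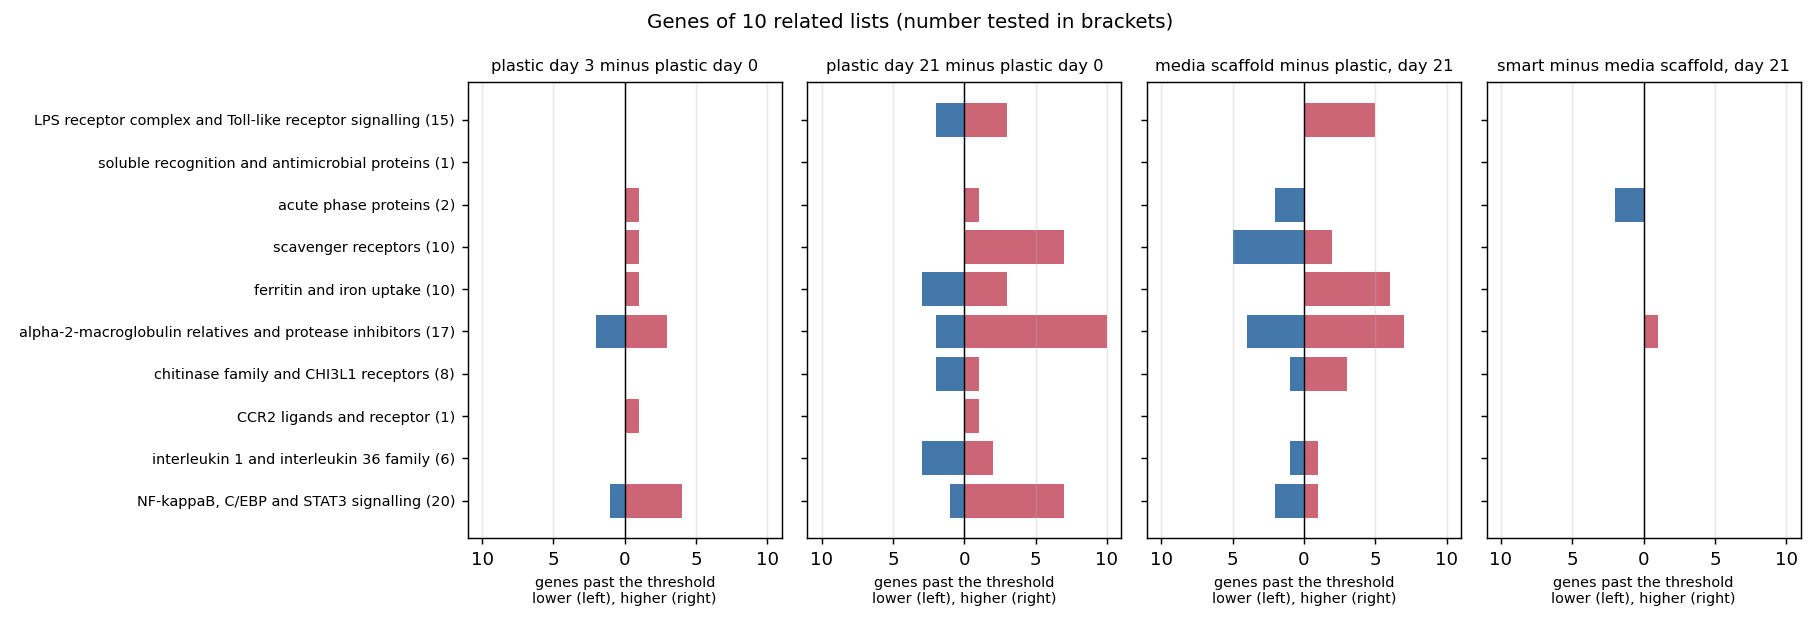
Number of genes in 10 related lists that were higher (right) or lower (left) past the threshold in 4 comparisons, with the number tested in brackets. Protease inhibitors (10 of 17), scavenger receptors (7 of 10) and NF-kappaB, C/EBP and STAT3 signalling (7 of 20) hold the most genes that rose on plastic by day 21, and few genes of any list pass between the scaffold types. LRP1 is counted both with the protease inhibitors and with the scavenger receptors.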

How the data were processed

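For 12894 genes the authors deposited 1 table of signal values, reads divided by a DESeq factor for each library. Cutadapt, STAR, HTSeq and the build ARS-UCD1.2 are named per the submitters' processing notes, while the sources used here do not give the handling of molecular identifiers and strand. Whole reads were recovered for 100% of values within 0.1 (largest distance 5.66e-05). Of 17 libraries in the labels, 15 were used. The names of 2 value columns match no sample, so they entered no step and the day 0 scaffold group was not analysed here.

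Log2(value + 1) was fitted in limma 3.58.1 (R 4.3.3; trend, robust) with a mean per group over 15 libraries, after keeping 10960 genes with a mean of at least 5 (1934 left out). The pipeline was tested on simulated data. edgeR 4.0.16 and DESeq2 1.42.0 on recovered reads, pseudocounts of 0.5 and 4, no minimum or a minimum of 20, other scalings, the compared groups alone, a replicate block and each library left out were alternatives.

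The members and lists were chosen with earlier results of these data known. Named were all members, up to 3 called genes per list and comparison with the largest difference and no overlap of libraries, and the 3 genes most correlated with each member. RefSeq names matched 7 of the 8 members (not MSMP). The result of 1 list gene is not reported here.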

Additional observations from a re-analysis of the deposited data

How the results depend on the processing

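Of the 8 comparisons, the number of the 8 genes past the threshold moved by more than 1.5 times with a higher minimum mean, the replicate block, edgeR, DESeq2 and single libraries left out. A minimum mean of 20 removed A2M, CD14 and IL36A from the test and left 1 at day 3 against day 0, 5 on plastic at day 21 against day 0 and against day 3, 4 on the media scaffold against day 0, and 5 on either scaffold against plastic. Between the scaffold types the count of 5 became 3 with the replicate number as a block, 3 with edgeR and 3 with DESeq2, and 3 to 4 when a library was left out (3 without replicate 2, 3 or 4 of the media scaffold or replicate 1 or 2 of the smart scaffold). The total of called genes over the 10 related lists stayed within 1.5 times in each comparison, while counts of single lists did not, and no result changed sign where it passed the threshold.

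Same-numbered libraries gave no clear sign of pairing: over 26 pairs the correlation of deviations ran from -0.074 to 0.157, 2 pairs were over 0.1, and 5 of 14 libraries correlated best with their own number. With so few libraries per group this check cannot exclude a pairing. The replicate block moved the calls over all genes from 99 to 78 between the scaffold types. Scaling to the same total per library shifted the median of all genes by -0.257, -0.319, -0.246 and -0.224 for plastic at day 21 against days 0 and 3 and for the media and smart scaffold against day 0. The share of calls that were higher then went from 46.8% to 35.6%, 44.5% to 27.3%, 53.9% to 39.7% and 53.9% to 39.7%. Without replicate 1 of plastic at day 21, genes that fell there against day 0 went from 3 to 5 for iron uptake and from 2 to 4 for protease inhibitors. With an equal total, against day 3, genes that rose went from 6 to 3 for NF-kappaB signalling, and those that fell from 3 to 5 for iron uptake and from 2 to 4 for protease inhibitors. Levels under about 3 normalized reads rest on a few reads.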
